A study of Rattus norvegicus with 2 samples.

Results

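The core circadian clock genes are 10 genes of the rat genome, taken here by name: the activators Bmal1, Clock and Npas2, the repressors Per1, Per2, Per3, Cry1 and Cry2, and the REV-ERB repressors Nr1d1 and Nr1d2. All 10 were found among the 15168 gene symbols that the array's RefSeq accessions could be matched to, and they were read by 15 probes. The cells were primary rat dental papilla cells, the mesenchymal cells of the tooth germ that give rise to odontoblasts, taken on postnatal day 1 to 3 and used at passage 3 to 4. The OS group was kept for 3 days in an odontogenic induction medium, and the OS+melatonin group for the same 3 days in that medium with 10 nM melatonin, the pineal hormone. Dexamethasone (0.1 mM as labelled), ascorbic acid (0.2 mM), β-glycerophosphate (10 mM) and 8% serum were present in both media, so both groups carried a glucocorticoid and serum. Before that the cells of both groups had been expanded in 20% serum. Each group is 1 one-colour Agilent array, and the sources used here do not give the hour of harvest. Each title closes with the tag n12(3), which nothing in the labels spells out, so an array may have read 1 culture or a pool. With 1 array per group there is no replicate error between cultures and no test between the groups.

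The clock is a feedback loop of transcription. BMAL1 pairs with CLOCK, or with its relative NPAS2, and the pair binds E-box sequences and switches on the Per and Cry genes, whose proteins return to the nucleus and block the pair. In a second loop the same pair drives Nr1d1 and Nr1d2, which encode REV-ERBα and REV-ERBβ, and these repress Bmal1 by competing with ROR receptors for a short element in its promoter. Since the loops run in cultured fibroblasts and other mesenchymal cells too, and glucocorticoids and fresh serum can set their phase, the level of a clock gene at 1 time point depends on where each cell stands in its cycle. Because a population whose cells have drifted out of phase averages over that cycle, 1 array per condition gives a mean over cells and 1 time, not a rhythm.

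Promoter windows of the members were searched for the short elements of these loops, each window 300 bases from 250 before to 50 after an annotated start. They are taken from RefSeq (build GRCr8, used only for names and sequences because the array's annotation names rn4). The Bmal1 and Nr1d1 windows are shown for the 2 sides of the second loop, Per2 for a member of the PER and CRY limb with matches, and Per3 and Nr1d2 because those genes had the 2 largest ratios among the measured members. Every window is written 5′ to 3′ on the gene's own strand, and capitals mark matches to the motifs searched.
Bmal1, chr1:176766078-176766377, plus strand: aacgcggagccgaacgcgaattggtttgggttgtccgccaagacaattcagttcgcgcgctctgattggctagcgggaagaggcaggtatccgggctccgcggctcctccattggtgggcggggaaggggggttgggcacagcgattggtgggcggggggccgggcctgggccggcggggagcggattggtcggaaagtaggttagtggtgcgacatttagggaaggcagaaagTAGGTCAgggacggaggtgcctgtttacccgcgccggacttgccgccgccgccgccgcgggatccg
Nr1d1, chr10:84229405-84229704, minus strand: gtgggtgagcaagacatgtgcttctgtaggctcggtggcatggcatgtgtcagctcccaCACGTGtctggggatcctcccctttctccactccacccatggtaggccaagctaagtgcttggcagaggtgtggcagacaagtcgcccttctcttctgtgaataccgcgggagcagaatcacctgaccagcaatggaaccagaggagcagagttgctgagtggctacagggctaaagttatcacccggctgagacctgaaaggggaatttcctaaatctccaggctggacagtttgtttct
Per2, chr9:99496944-99497243, minus strand: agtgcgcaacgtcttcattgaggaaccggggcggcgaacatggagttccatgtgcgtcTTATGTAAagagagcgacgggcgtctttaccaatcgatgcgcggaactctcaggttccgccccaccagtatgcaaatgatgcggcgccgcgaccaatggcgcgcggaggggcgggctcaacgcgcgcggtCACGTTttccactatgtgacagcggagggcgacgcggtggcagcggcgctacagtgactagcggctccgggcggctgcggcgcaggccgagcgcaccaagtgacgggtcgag
Per3, chr5:166777751-166778050, minus strand: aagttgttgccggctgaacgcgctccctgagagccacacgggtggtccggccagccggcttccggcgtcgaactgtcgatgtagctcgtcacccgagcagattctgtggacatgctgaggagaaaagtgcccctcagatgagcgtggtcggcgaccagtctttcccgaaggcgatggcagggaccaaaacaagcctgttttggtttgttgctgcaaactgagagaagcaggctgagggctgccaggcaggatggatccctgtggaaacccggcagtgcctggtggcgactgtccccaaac
Nr1d2, chr15:9954784-9955083, plus strand: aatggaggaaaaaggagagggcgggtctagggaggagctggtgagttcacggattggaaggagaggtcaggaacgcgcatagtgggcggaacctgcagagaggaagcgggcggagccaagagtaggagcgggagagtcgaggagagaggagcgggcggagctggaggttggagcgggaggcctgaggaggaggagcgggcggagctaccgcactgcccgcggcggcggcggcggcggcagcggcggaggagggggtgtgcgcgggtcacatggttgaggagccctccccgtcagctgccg

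Both strands were searched for the E-box CACGTG, its variant CACGTT, the core TAGGTCA of the REV-ERB and ROR element, the D-box TTATGTAA and the cyclic AMP response element TGACGTCA, and no 2 matches overlapped. Of the 10 members 9 had a window, all but Cry1, with 11 windows in all. The Bmal1 window held TAGGTCA beginning 16 bases before the start, a string found in 2.63% of the 33469 promoter windows in the table. CACGTG, present in 6.42% of all windows, was in 1 of the 2 Nr1d1 windows, 191 bases before that start, and the other Nr1d1 window held the variant (4.83% of all windows). In Per2 the D-box string lay 192 bases and the variant E-box 62 bases before the start, with D-box strings in 0.893% of all windows. The Cry2 window held the variant E-box 212 bases before its start, while none of the 5 strings was in the windows of Clock, Npas2, Per1, Per3 or Nr1d2, and no member window held the cyclic AMP element (1.83% of all windows). A match of letters is a description of the window and not a measured binding site.

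Of the 10 clock genes 8 were well above background on both arrays, by the extraction software's flag. Nr1d1 was above it on the OS array alone and Per1 on neither. By probe, 9 of 15 were above background on both arrays, 2 on the OS array alone and 4 on neither. Detection was lower with melatonin across all probes, at 48.4% against 55.2% for OS. The lowest signal called above background was 29.6 with melatonin and 20.7 for OS. A call for OS alone is therefore not read as lower expression. After each array was scaled to its own 75th percentile (a processed signal of 428 for OS and 329 for OS+melatonin), 0 of the 8 measured members differed by 2-fold, against 0.96% of the 8231 genes measured on both arrays (0.255% higher and 0.705% lower). At 1.5-fold the count was again 0 of 8, against 4.67% of all genes, and at a log2 ratio of 0.32 or more in size it was 1 higher (Nr1d2) and 1 lower (Per3), against 10.1% and 7.85%. The members' counts are thus close to the background of all genes. On the log2 scale the members' median ratio, melatonin over OS, was -0.055 and that of all measured genes 0.039, with 6 of the 8 members below 0, against 42.4% of all genes.

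**Figure D1:**
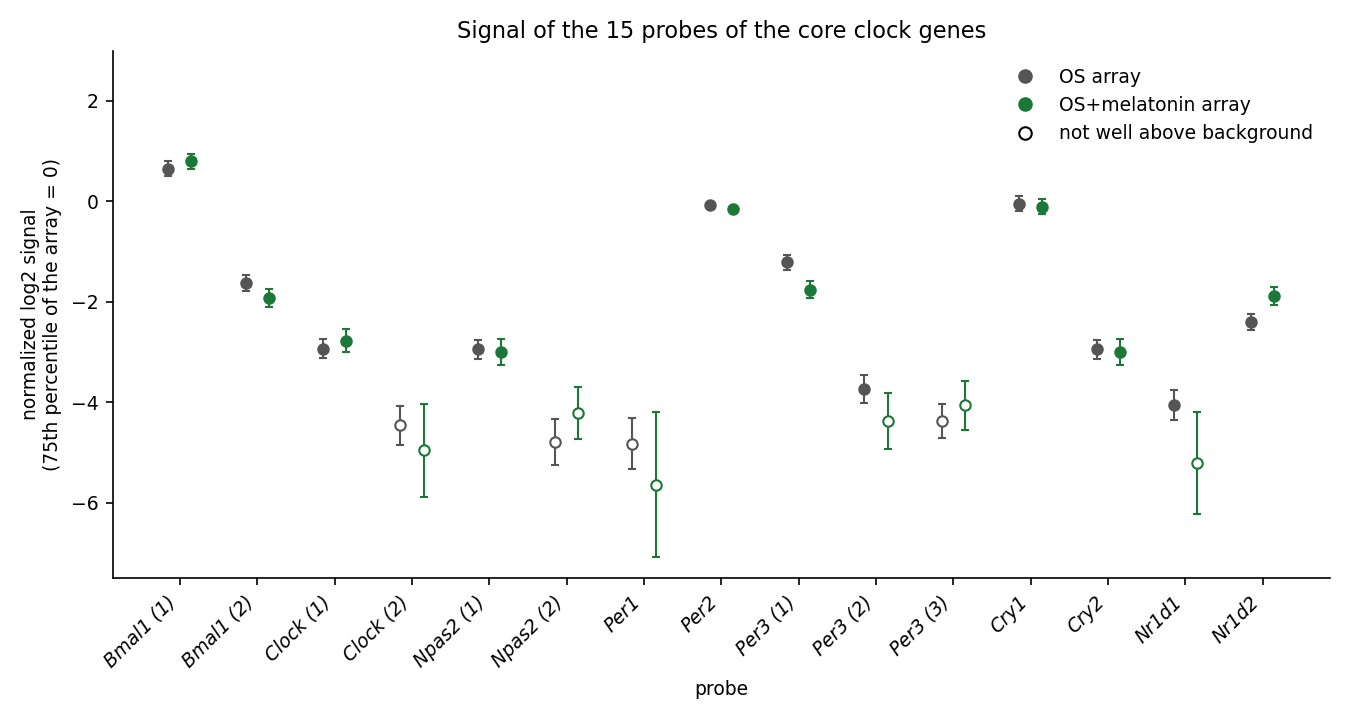
Normalized log2 signal (array's 75th percentile = 0) of each of the 15 probes on the OS array (grey) and the OS+melatonin array (green), with the extraction software's error estimate as bars and open points where the probe was not well above background. Most pairs of points overlap within their bars, Per3 (1) lies lower and Nr1d2 higher on the melatonin array, and levels of different probes are not comparable with each other.

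Errors given below are the extraction software's own estimate for each spot, combined over both arrays, on the log2 scale. They cover the spot and its background, not the cultures. For the 13533 probes printed once and measured on both arrays, the median of this estimate was 0.21, whereas their log2 ratios spread over the array with an SD of 0.38.

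In the activator limb, the measured differences were small and their signs mixed. Bmal1, the obligate partner of the activating pair, was read by 2 probes. One had a processed signal of 673 for OS and 572 for OS+melatonin, which after scaling is a log2 ratio of 0.14 ± 0.20. The other had 139 and 86.3, a ratio of -0.31 ± 0.23. The 2 probes thus differed in sign, though the first lay within 1 error of 0. Their mean was -0.081 ± 0.16, an error that does not cover the difference between the probes.

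Clock, the partner of BMAL1 that also carries acetyltransferase activity, had signals of 56.1 and 48.0 on its measured probe and a log2 ratio of 0.16 ± 0.30. Its other probe, at 19.5 and 10.6, did not pass the background flag on either array (-0.49 ± 1.01). Npas2, which can stand in for CLOCK, had 55.6 and 41.2 on its measured probe and a ratio of -0.053 ± 0.32. The other Npas2 probe, with 15.5 and 17.7, did not pass it either (0.58 ± 0.70). Ratios at background say little, and only the measured probe of each gene enters its value.

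Among the PER and CRY repressors, all 4 measured genes had ratios below 0, 3 of them between -0.066 and -0.051. Cry1, the cryptochrome that holds the activator pair in check late in the cycle, had signals of 415 for OS and 306 for OS+melatonin, a log2 ratio of -0.057 ± 0.21. Cry2, its relative, had signals of 55.5 and 41.2 and a ratio of -0.051 ± 0.32. Both cryptochromes therefore lay well within 1 error of 0.

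Per2, a PERIOD protein that scaffolds the repressor complex, was the best-read member, with 10 spots on each array. On the OS array the spots ran from 375 to 446, with a median of 399, and on the melatonin array from 244 to 373, with a median of 297. The ranges did not overlap before scaling, but the whole melatonin array was dimmer. After scaling the 10 spot ratios ran from -0.39 to 0.31 with 5 below 0 and 5 above, and their mean was -0.066 (SD 0.22 and SE 0.069 between spots). Since spots of 1 array share a labelled RNA, this SE is that of the reading and not of the cultures.

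**Figure D2:**
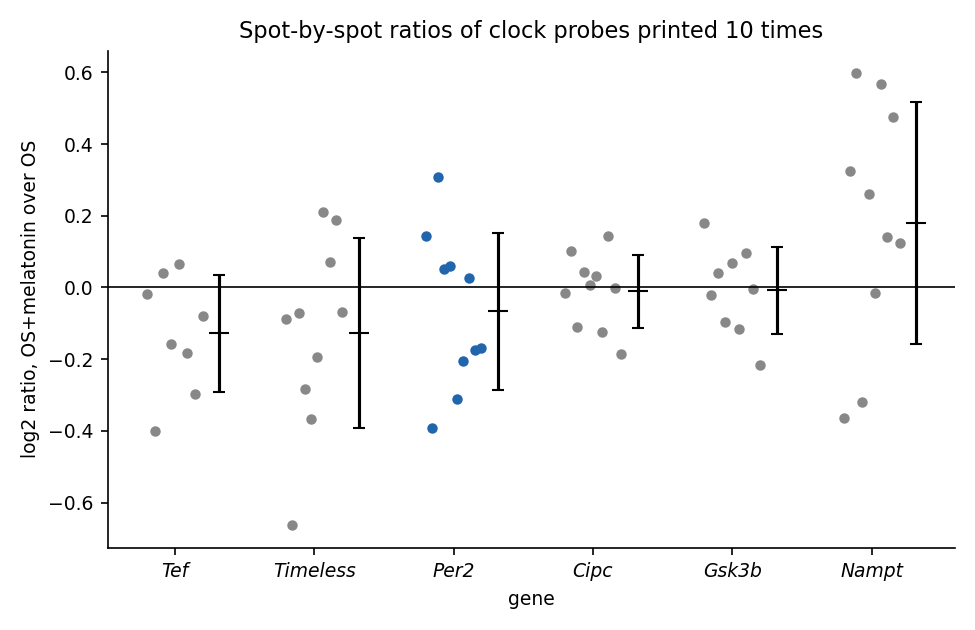
Log2 ratio of OS+melatonin over OS for each usable spot of the clock-pathway probes printed 10 times, with the mean and SD between spots as black bars. The Per2 spots (blue) fall on both sides of 0, from -0.39 to 0.31, and the Nampt spots spread widest (SD 0.34).

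Per3, the third PERIOD gene, had the lowest ratio of the measured members. Its brightest probe gave 185 for OS and 97.2 for OS+melatonin, a log2 ratio of -0.55 ± 0.23, or 1.46-fold lower. A further Per3 probe gave 32.2 and 15.9 (-0.63 ± 0.62) but was above background for OS alone, and the lowest melatonin signal called above background, 29.6, leaves no fold that can be given. The third, with 20.7 and 19.7, was above background on neither array and had a ratio of 0.31 ± 0.60. The size of the Per3 value thus rests on 1 spot, and averaging all 3 probes (no filter on dim probes, or the looser flag for a positive and significant signal) gave -0.29. Under normexp background correction the same measured probe gave -0.26. Per1, the PERIOD gene that glucocorticoids induce, had signals of 15.1 and 6.60, neither well above background, so no fold is given.

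In the second loop the 2 REV-ERB genes could not be compared with each other. Nr1d2, which encodes REV-ERBβ, had a processed signal of 81.1 for OS and 89.5 for OS+melatonin, the only measured member probe whose signal was higher on the melatonin array before scaling too. Its log2 ratio was 0.52 ± 0.24, or 1.44-fold higher, by 1 spot. Nr1d1, which encodes REV-ERBα, had 25.8 without and 8.88 with melatonin, the latter not well above background. Because the melatonin floor of 29.6 lies above its OS signal after scaling, no fold was given. Both Nr1d2 and Per3 lay just over 2 errors from 0 (2.15 and 2.42), and each was smaller than 1.5-fold.

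**Figure D3:**
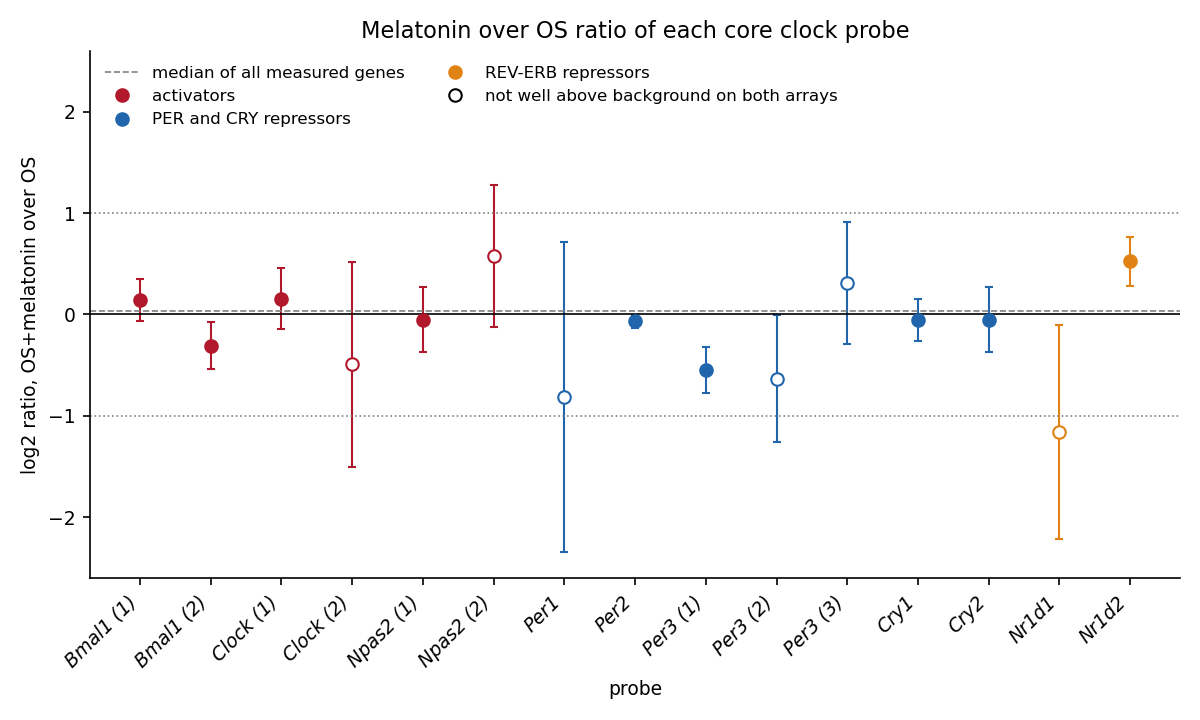
Log2 ratio of OS+melatonin over OS for each of the 15 probes, coloured by role, with the software's error estimate as bars. Open points were not well above background on both arrays, the dashed line is the median of all measured genes (0.039), and dotted lines mark 2-fold. Among the filled points Per3 (1) at -0.55 and Nr1d2 at 0.52 stand farthest from 0.

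Set against each other, the 2 limbs had nearly equal medians. The median log2 ratio was -0.053 over the 3 activators (from -0.081 to 0.16) and -0.062 over the 4 measured PER and CRY repressors (from -0.55 to -0.051), a difference of 0.0091, or 1.01-fold. With Nr1d2 counted as a repressor the difference was 0.0045. The difference grew to 0.44 under normexp background correction, where the activator median was 0.32 and that of all genes 0.091, to 0.21 when each gene was read by its brightest probe, and to 0.19 with means in place of medians. The activator limb is thus uncertain in sign, since Bmal1 turned to 0.14 with its brightest probe alone and Npas2 to 0.32 under normexp. The repressor median stayed below 0 in all 13 alternatives, from -0.18 to -0.050, but these rework the same 2 arrays and do not settle its sign. Cry1 and Cry2 lay within 1 error of 0, Cry2 turned to 0.19 under normexp, and the Per2 spots fell 5 below 0 and 5 above.

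**Figure D4:**
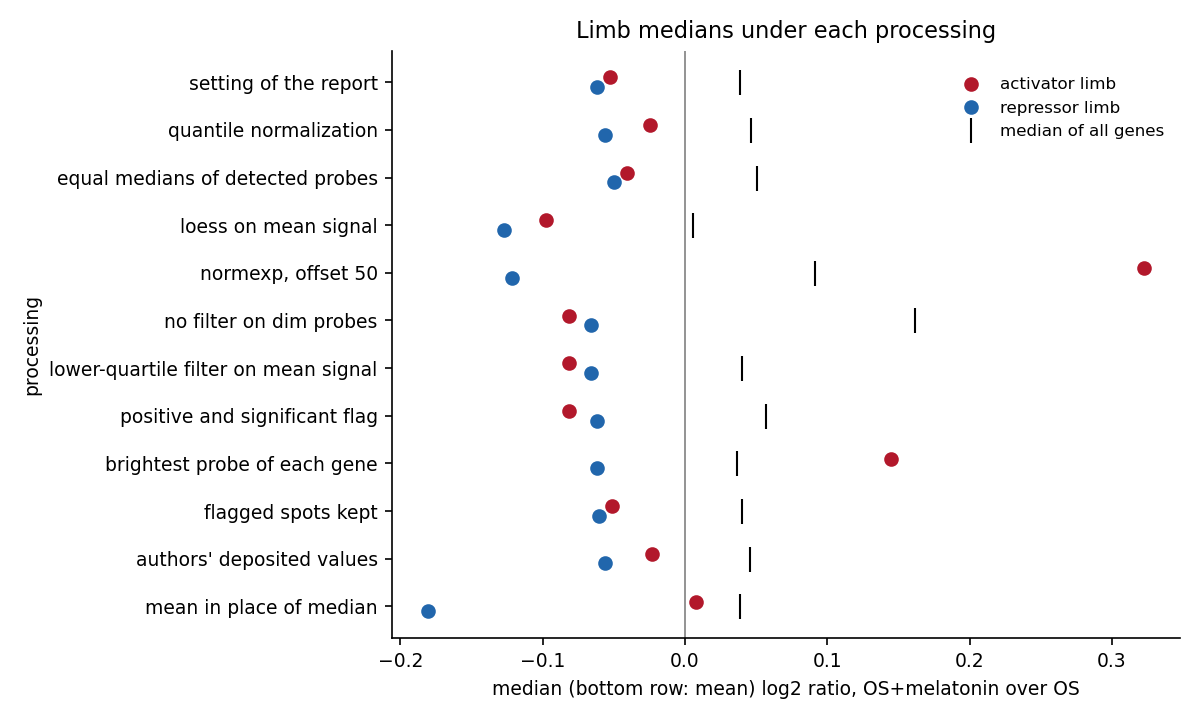
Median log2 ratio of OS+melatonin over OS for the activators (red) and the PER and CRY repressors (blue) under each processing, with the median of all measured genes as a black tick (bottom row: means of the limbs). The limbs lie within 0.033 of each other except under normexp, in the brightest-probe setting and with means.

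The other genes of the clock pathway were taken from 6 lists holding 38 gene names, with Ciart also listed as Chrono. Of these names 30 were matched to the array by accession and 27 measured on both arrays. None differed by 2-fold, beside 0.96% of all measured genes. Log2 ratios of 0.32 or more were found for 3 genes and of -0.32 or less for 3, beside 10.1% and 7.85% of all genes. Above 0 were 13 ratios and below it 14, beside 57.6% and 42.4%, and the median was -0.0073. The 3 ROR receptors, which oppose the REV-ERBs on the Bmal1 promoter, were not matched to a probe by accession.

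Of the 8 genes in the lists of other bHLH and E-box repressors and of PAR bZIP output factors, 4 were measured. Ciart, a repressor of the pair, had signals of 533 and 317 and a ratio of -0.37 ± 0.21 by 1 spot. Dbp, a PAR bZIP factor whose transcription follows the pair closely, was read by 3 probes with ratios between -0.27 and -0.030 and a mean of -0.13 ± 0.12. Tef, its relative, had a mean of -0.13 over 8 usable spots (SD 0.16), with 6 of the 8 below 0. The bHLH repressor Bhlhe40 stood at -0.0073 ± 0.22. Nfil3, which opposes the PAR bZIP factors, and Bmal2, a paralog of Bmal1, passed the background flag for OS alone. Since fewer probes of any gene passed it with melatonin, these 2 calls are not read as lower expression. None of the 4 measured genes was 1.5-fold lower.

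Of the 10 kinases and phosphatases that set the stability of PER and CRY, 9 were measured, with a median of 0.013. Csnk1e, which encodes casein kinase 1ε and marks PER for destruction, was 1.30-fold lower: its 2 measured probes went from 440 to 275 and from 188 to 104, with log2 ratios of -0.29 and -0.47. The related Csnk1d had 2 probes of opposite sign (-0.10 and 0.27), and Gsk3b stood at -0.0076 over 9 spots (SD 0.12). Csnk2b, the regulatory subunit of casein kinase 2, was highest of this list, at 0.17 ± 0.20, within 1 error of 0.

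All 3 ubiquitin enzymes measured and reported here lay below 0, with a median of -0.14. Usp2, a deubiquitinase that is itself a clock output, had signals of 506 for OS and 253 for OS+melatonin and was 1.54-fold lower (-0.62 ± 0.21), by 1 spot, the lowest ratio of the 27. Usp7, another deubiquitinase, was next at -0.14 ± 0.21, and Btrc, which targets PER for degradation, stood at -0.093 ± 0.20, both within 1 error of 0.

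The 11 measured clock-controlled and accessory genes had a median of 0.18, with 8 above 0, beside a median of 0.039 and 57.6% above 0 over all measured genes. The difference of this list from the others was not tested. Noct, which encodes the rhythmically expressed enzyme nocturnin, had signals of 509 and 523 and a ratio of 0.42 ± 0.21. Id2, a bHLH inhibitor, had signals of 35.7 and 37.6 (0.46 ± 0.36) by 1 spot. Its melatonin signal was not far above the lowest signal called above background there, 29.6. Nono, an RNA-binding partner of PER, had signals of 16139 and 16068 (0.37 ± 0.20). Nampt, an enzyme of NAD synthesis under clock control, had 7 of 10 spots above 0 and a mean of 0.18 (SD 0.34). Lower values were those of Timeless, a protein of the replication fork, at -0.13 over 10 spots (SD 0.27), and Prmt5, an arginine methyltransferase, at -0.039 ± 0.22.

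**Figure D5:**
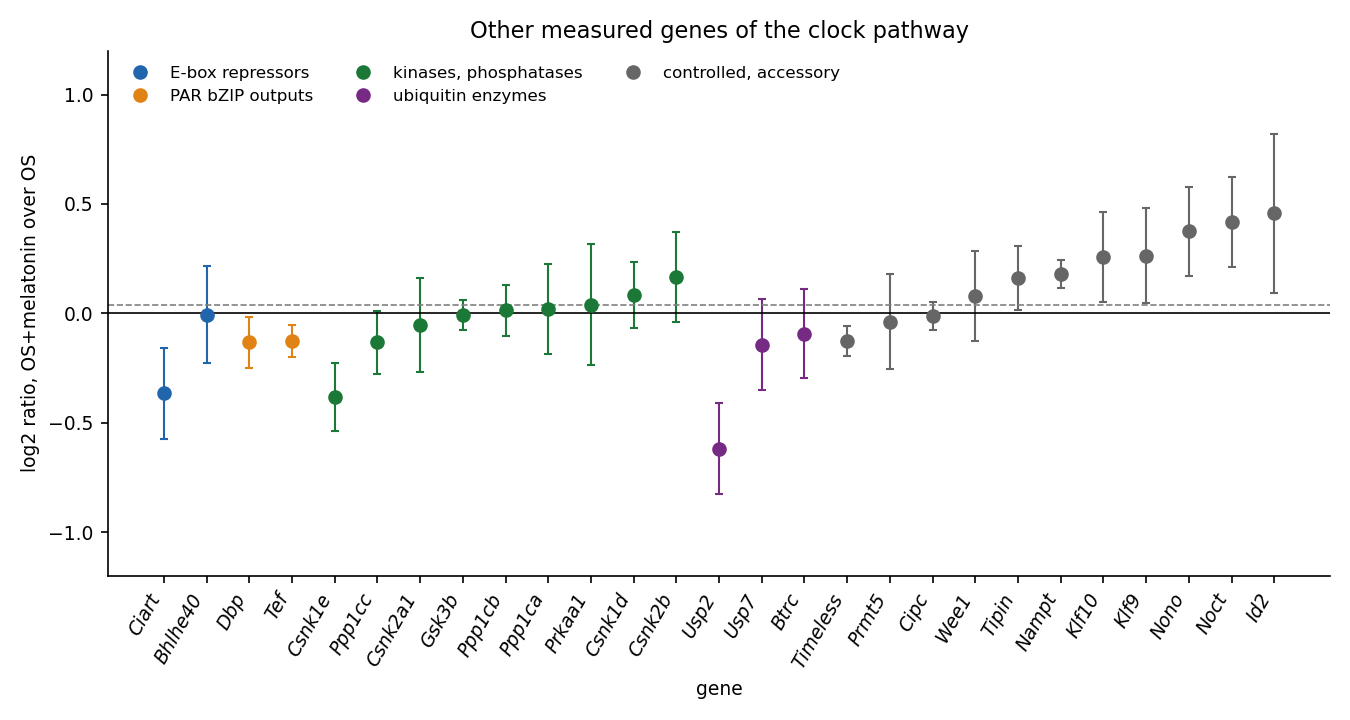
Log2 ratio of OS+melatonin over OS of 27 other measured genes of the clock pathway, grouped and coloured by list, with the software's error estimate as bars and the median of all measured genes as a dashed line. Ratios run from -0.62 for Usp2 to 0.46 for Id2, and none reaches 2-fold.

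Genes that carry the searched strings in their windows lay where all genes lay, a reading chosen after the members' values were seen. Over 673 measured genes with CACGTG in a window the median log2 ratio was 0.034, and 43.7% were below 0, beside 0.040 and 42.2% over all 6806 measured genes with a window. The medians were 0.030 for 414 genes with CACGTT, 0.040 for 126 genes with TAGGTCA and 0.053 for 238 genes with the cyclic AMP element. For 25 genes with the D-box string it was 0.037.

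The inputs through which serum, dexamethasone and melatonin can reach the clock were measured on the same arrays. Mtnr1a, the MT1 melatonin receptor, had signals of 85.7 and 48.4 and a ratio of -0.44 ± 0.28 by 1 spot. The other melatonin receptor gene, Mtnr1b, was not matched to a probe by accession. Nr3c1, the glucocorticoid receptor, stood at 0.020 ± 0.16, and the list of this receptor and its rapid targets had a median of 0.020 over 5 measured of 6 genes, with Fkbp5 at -0.36 ± 0.21 and Tsc22d3 at 0.17 ± 0.20. The immediate early list had a median of 0.12 over 5 measured of 8 genes, with Egr1 at -0.32 ± 0.35 and Jun at 0.22 ± 0.23. Crem stood at -0.26 ± 0.11 over 4 probes, whose ratios ran more widely than this error, from -0.62 to 0.0042.

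As to the cells themselves, 11 of 12 dental mesenchyme markers were on the array and all 11 were measured, with a median log2 ratio of 0.019. Of these 8 lay above 0 and 3 below, from Thy1 at -0.68 ± 0.21 (1.60-fold lower) to Msx2 at 0.44 ± 0.29. Of 6 odontoblast markers Nes and Ibsp were measured (median -0.089), and neither array had Dspp, Dmp1 or Phex well above background. Among markers of other cells, 1 of 5 for epithelium was measured, Tp63 at -0.029 with probes at -0.50 and 0.45. Measured too were 2 of 5 for endothelium (median -0.24), 1 of 5 for muscle (-0.40) and 3 of 5 for neurons and Schwann cells (0.15). Of the 7 macrophage and blood markers 6 were measured, 5 of them with log2 ratios of -0.32 or less, beside 7.85% of all genes, with a median of -0.69 and a log2 summed level of 1.11 for OS and -0.025 for OS+melatonin. The list included Lyz2, lysozyme of myeloid cells, at -2.47, the lowest ratio of all 8231 measured genes. The β-globin gene Hbb, of a family of near-identical genes, stood at -1.73, and both were past 2-fold. Their melatonin signals, 47.1 for Lyz2 and 38.5 for Hbb, were not far above the lowest signal called above background there, 29.6. Csf1r went the other way, at 0.20 ± 0.25. The leukocyte marker Ptprc passed the background flag on neither array, and the part of these cells in the Per3, Usp2 or Nr1d2 values was not tested. Whether fewer cells of a type or less RNA per cell lies behind a lower signal cannot be told apart in bulk RNA.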

How the data were processed

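Total RNA labelled with Cy3 was read on 1 array per group. The deposited files hold spot intensity values extracted with Agilent Feature Extraction 11.0.1.1 for array design 028282, per the file headers, and the processed intensity was background-subtracted by that software. The authors' deposited log2 values, with column medians of 5.10, served as an alternative. Across probes their Pearson correlation with the log2 processed signal was 0.9997 for OS and 0.9988 for OS+melatonin. Their normalization is not stated in any source used here.

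Outlier spots (937) were left out, log2 signals were averaged per probe and scaled to each array's 75th percentile over 30359 probes, and each gene is the mean of its probes that passed the well-above-background flag on both arrays (in most of their spots). "Measured" means this. Symbols came from RefSeq accessions (18000 probes, 59.3%). On the OS array 55.2% of probes were above background and on the melatonin array 48.4%, and 0 spots were saturated. Both arrays came from 1 scan.

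No test was run. Precision is limited by the number of arrays. The members and lists were chosen with earlier results of these data known. All 10 members were named, as were up to 3 genes from each input list. Of the 6 other clock lists some measured genes were named, and these were not always the ones with the largest ratios. The values of 1 gene of the ubiquitin list are not reported here, and it was left out of the list counts. Alternatives covered normalization, background correction (normexp with an offset of 50, limma 3.58.1), dim-probe filters, probe choice and limb definition. Calculations used Python 3.11.15, and the gene step was tested on simulated arrays.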

Additional observations from a re-analysis of the deposited data

How the results depend on the processing

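No replicate stands behind any value, so an alternative was read as moving a limb value when it shifted it by more than 0.159, the median SD between spots of probes printed 10 times, and a gene's value when it shifted by more than the gene's error. The repressor median moved in 0 of 13 alternatives, the activator median in 2 of 12 and their difference in 3 of 14. The limit of 0.159 is larger than the size of the repressor median (-0.062), so these counts say little about its sign or size. Choosing the brightest probe could not move the repressor median, because each measured repressor had 1 measured probe. Under the lower-quartile filter the activator limb was 1 gene. Normexp gave an activator median of 0.3225 and a difference of 0.4442, the brightest probe of each gene 0.1445 and 0.2062, and means in place of medians a difference of 0.1882. The count of members past 2-fold was 1 of 10 with no filter on dim probes and 1 of 9 with the looser flag. It was Nr1d1 both times, at background on the melatonin array. With no filter 1860 of all 15164 genes were 2-fold higher and 229 lower. With the looser flag 612 of 10925 were higher and 155 lower. At a log2 threshold of 0.32 the count was 2 of 8, beside 10.1% of all genes higher and 7.85% lower. By gene, Per2, Cry1, Cry2 and Nr1d2 moved in none of the alternatives that measured them, and Per3 stayed below 0 in 10 of 10 (-0.55 to -0.26) and Nr1d2 above 0 in 9 of 9 (0.34 to 0.57). Cry2 was above 0 in 1 of 9, Npas2 in 3 of 9 and Bmal1 in 2 of 10, and Clock was below 0 in 2 of 9. Without Per3, chosen after seeing the data, the repressor median was -0.057. Leaving the filter off moved the median of all genes to 0.16. Adding Bmal2 and the ROR genes to the activators changed nothing because none was measured. No paired analysis was possible because each group is 1 array. Dim signals limit Clock, Npas2 and Cry2, whose errors were 0.30 to 0.32.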
